A study of Homo sapiens with 12 samples.

Results

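Cells build phosphatidylserine (PS), phosphatidylethanolamine (PE) and phosphatidylcholine (PC) with a small group of enzymes, and the transcripts of 10 of them were followed here after the PS synthase PTDSS1 was inhibited. The 10 genes were chosen by name for their roles in these routes: the PS synthases *PTDSS1* and *PTDSS2*, the PS decarboxylase *PISD*, the kinases *CHKA* and *ETNK1*, the cytidylyl-transferases *PCYT1A* and *PCYT2*, and the phosphotransferases *CEPT1*, *CHPT1* and *SELENOI*, whose older symbol is *EPT1*. All 10 were found under the same Ensembl identifiers in both deposited count tables, which list 30984 genes for KYSE30 and 78691 for U138MG, and all 10 passed the filter on low counts in both. Poly-A RNA was sequenced in 12 libraries, 3 in each of 4 groups, all of genotype WT in the labels. KYSE30, from an esophageal squamous cell carcinoma, and U138MG, labelled glioblastoma, were each treated for 48 h with 100 nM PTDSS1i, the small molecule DS55980254, or with DMSO, the vehicle. The question is whether other enzymes of these routes change when PTDSS1 is blocked.

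PTDSS1 and PTDSS2 make PS in the endoplasmic reticulum by exchanging the headgroup of an existing phospholipid for serine. The study describes both PC and PE as substrates of PTDSS1, and PE alone as that of PTDSS2. PISD turns PS into PE in mitochondria. The other route to PE and PC is the Kennedy pathway, in which ethanolamine or choline is phosphorylated by a kinase, activated with CTP by a cytidylyl-transferase, and joined to diacylglycerol by a phosphotransferase.

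The libraries held between 18800932 and 26514658 counts on genes, and no replicates were alike enough to be 1 library deposited again. KYSE30 carries the label batch1 and U138MG batch2, and each line has its own table, so line, batch and table cannot be told apart and levels are not tested between lines. The labels give U138MG cultures the medium of KYSE30, while the study's methods name DMEM for them. Several markers of the libraries labelled U138MG went against that label, and others did not. Of 5 glial and neural stem markers, *OLIG2* and *S100B* were at 0 counts in all 6 of those libraries, *GFAP* at 24 to 56 counts and *NES* at 9 to 65, while *SOX2* was at 728 to 877 counts on DMSO and 87 to 123 on PTDSS1i. In KYSE30 *SOX2* was at 1842 to 2192 counts on DMSO and 1794 to 2241 on PTDSS1i, so its presence is not particular to the U138MG label. Of 6 mesenchymal markers, *VIM* was at 3 to 11 counts and *COL1A2* at 0 to 3, while *SPARC* was at 7734 to 16166, *FN1* at 972 to 1789, *COL1A1* at 1014 to 1384 and *CDH2* at 232 to 298. Of 7 squamous and epithelial markers, *KRT14* was at 1 to 7 counts and *KRT6A* at 7 to 36 in the libraries labelled U138MG. In their DMSO libraries *KRT5*, a basal keratin, was at 29454 to 33118 counts and *KRT15* at 96073 to 110146. There *TP63* was at 5182 to 6337, *CDH1* at 8895 to 10338 and *EPCAM* at 4632 to 5496. In KYSE30, 6 of the 7 squamous and epithelial markers were above 3 counts in all PTDSS1i libraries and 5 in all DMSO libraries, and *KRT5* was the one marker at 3 counts or fewer in every library. These lists moved with treatment. The summed squamous and epithelial level lay at 902 to 971 CPM (counts relative to the total count of the library) on DMSO and 1147 to 1179 on PTDSS1i in KYSE30, and at 6870 to 7668 and 1718 to 1838 CPM in the libraries labelled U138MG. The mesenchymal sum went from 98.3 to 149 CPM on DMSO to 86.4 to 90.5 on PTDSS1i in KYSE30 and from 841 to 872 CPM to 449 to 464 in the other set. The glial and neural stem sum went from 97.6 to 103 CPM to 86.3 to 89.3 in KYSE30 and from 40.8 to 43.7 CPM to 7.05 to 8.52 in the other set, most of it *SOX2*. The part of these shifts in the results below was not tested. In such bulk samples, fewer cells of a type and less RNA per cell cannot be told apart.

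Ahead of the values, the stretches upstream of 4 members are given, because of the 6 members called in the same direction in both sets of libraries they had the largest changes in the set where each changed less. *CHKA* and *PCYT1A* ranked below them and are not shown. Each is the 250 bases before the most upstream start in RefSeq's promoter table (GRCh38.p14), written 5′ to 3′ on the strand of the gene. These starts differ from the gene starts of GENCODE v29 used for the coordinates below, and lie downstream of them by 65 bases for *PCYT2*, 96 for *ETNK1*, 693 for *CHPT1* and 37596 for *SELENOI*, so each stretch lies partly or wholly inside the gene as that annotation draws it. Capitals mark the CCAAT box, searched on both strands, so that ATTGG is its reverse form. *PCYT2* (chr17:81911400-81911649, minus strand), *SELENOI* (chr2:26345893-26346142, plus strand) and *ETNK1* (chr12:22624921-22625170, plus strand) rose, and *CHPT1* (chr12:101697390-101697639, plus strand) fell.
PCYT2: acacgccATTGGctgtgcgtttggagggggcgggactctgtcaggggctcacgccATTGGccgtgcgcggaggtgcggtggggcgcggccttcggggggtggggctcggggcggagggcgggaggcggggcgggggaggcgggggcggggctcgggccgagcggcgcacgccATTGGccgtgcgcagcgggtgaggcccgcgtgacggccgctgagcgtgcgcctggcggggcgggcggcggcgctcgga
SELENOI: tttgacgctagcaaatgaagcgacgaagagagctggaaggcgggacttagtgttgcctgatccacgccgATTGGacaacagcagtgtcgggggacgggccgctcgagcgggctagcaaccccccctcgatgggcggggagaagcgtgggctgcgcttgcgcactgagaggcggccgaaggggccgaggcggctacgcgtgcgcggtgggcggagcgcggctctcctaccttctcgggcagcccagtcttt
ETNK1: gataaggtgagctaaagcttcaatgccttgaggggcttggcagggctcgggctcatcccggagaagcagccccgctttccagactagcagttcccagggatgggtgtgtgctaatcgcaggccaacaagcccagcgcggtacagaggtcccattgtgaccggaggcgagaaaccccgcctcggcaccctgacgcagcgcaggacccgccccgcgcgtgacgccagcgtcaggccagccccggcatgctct
CHPT1: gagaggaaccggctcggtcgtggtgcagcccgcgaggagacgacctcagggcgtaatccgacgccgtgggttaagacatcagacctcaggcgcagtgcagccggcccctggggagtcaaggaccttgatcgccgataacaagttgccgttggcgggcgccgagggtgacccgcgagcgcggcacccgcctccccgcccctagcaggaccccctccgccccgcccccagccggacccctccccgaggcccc
The *PCYT2* stretch holds 3 CCAAT boxes, all in the reverse form, the *SELENOI* stretch 1, and the stretches of *ETNK1* and *CHPT1* none. Of 35116 promoter stretches of this length, 32% hold at least 1 CCAAT box and 2.93% hold 3 or more. Each box of *PCYT2* lies inside the same 12 bases, CACGCCATTGGC, whose copies begin 249, 201 and 84 bases before the start. These 12 bases were picked as the longest stretch present 3 times in this same *PCYT2* window. That it is the only promoter in the table with 3 copies follows largely from that choice, and nothing is read from it. Any copy at all is held by 2 promoters. The *PCYT2* stretch is 80% G and C, against 66.8% for *SELENOI*, 65.2% for *ETNK1* and 72% for *CHPT1*. The letters CACGTG (E-box, in 6.34% of all promoters), TGATGNAA (a C/EBP-ATF composite core, 3.14%), TCACNCCAC (a sterol regulatory element core, 0.883%) and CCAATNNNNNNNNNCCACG (the ER stress element, 0.074%), of which the last overlaps the CCAAT box, were found on either strand in none of these 4 stretches. Of the stretches searched for 8 members, the other matches were 2 E-boxes upstream of 1 start of *PTDSS2* and 1 CCAAT box upstream of 1 start of *PISD*. A match or its lack describes these letters in this window only.

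In KYSE30, 5 of the 10 enzymes rose, 1 fell and 4 were not called at an adjusted p under 0.05, over the 16389 genes tested by edgeR's quasi-likelihood test. Among all tested genes 62% were called, 30.1% as higher and 32% as lower. *PCYT2* rose 3.46-fold and was the only member with a rise past a log2 fold change of 1, as were 6.4% of all genes. *CHPT1* fell to 0.449 of its DMSO level and was the only member with a fall past that size, as were 7.04% of all genes (13.4% in either direction). *CHKA*, *ETNK1*, *SELENOI* and *PCYT1A* rose by less. *PTDSS1*, *PTDSS2*, *PISD* and *CEPT1* were not called. The treatments did not overlap for 7 of the 10, against 66.3% of all tested genes. The median log2 fold change of the members was 0.14, and that of all tested genes was -0.025.

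In the libraries labelled U138MG, 7 enzymes rose, 2 fell and 1 was not called over 17666 genes tested, where 67.5% of all genes were called, 33.9% as higher and 33.6% as lower. *SELENOI* rose 2.67-fold and was the only member past a log2 fold change of 1, as were 8.19% of all genes in that direction and 11.6% in the other, in which no member passed it (19.8% in both together). *PCYT2* rose 1.88-fold. *PTDSS1* and *CHPT1* fell, and *PTDSS2* was not called. The libraries of the treatments did not overlap for 9 of the 10, against 71.4% of all tested genes. The median log2 fold change of the members was 0.28, and that of all tested genes was -0.026.

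**Figure D1:**
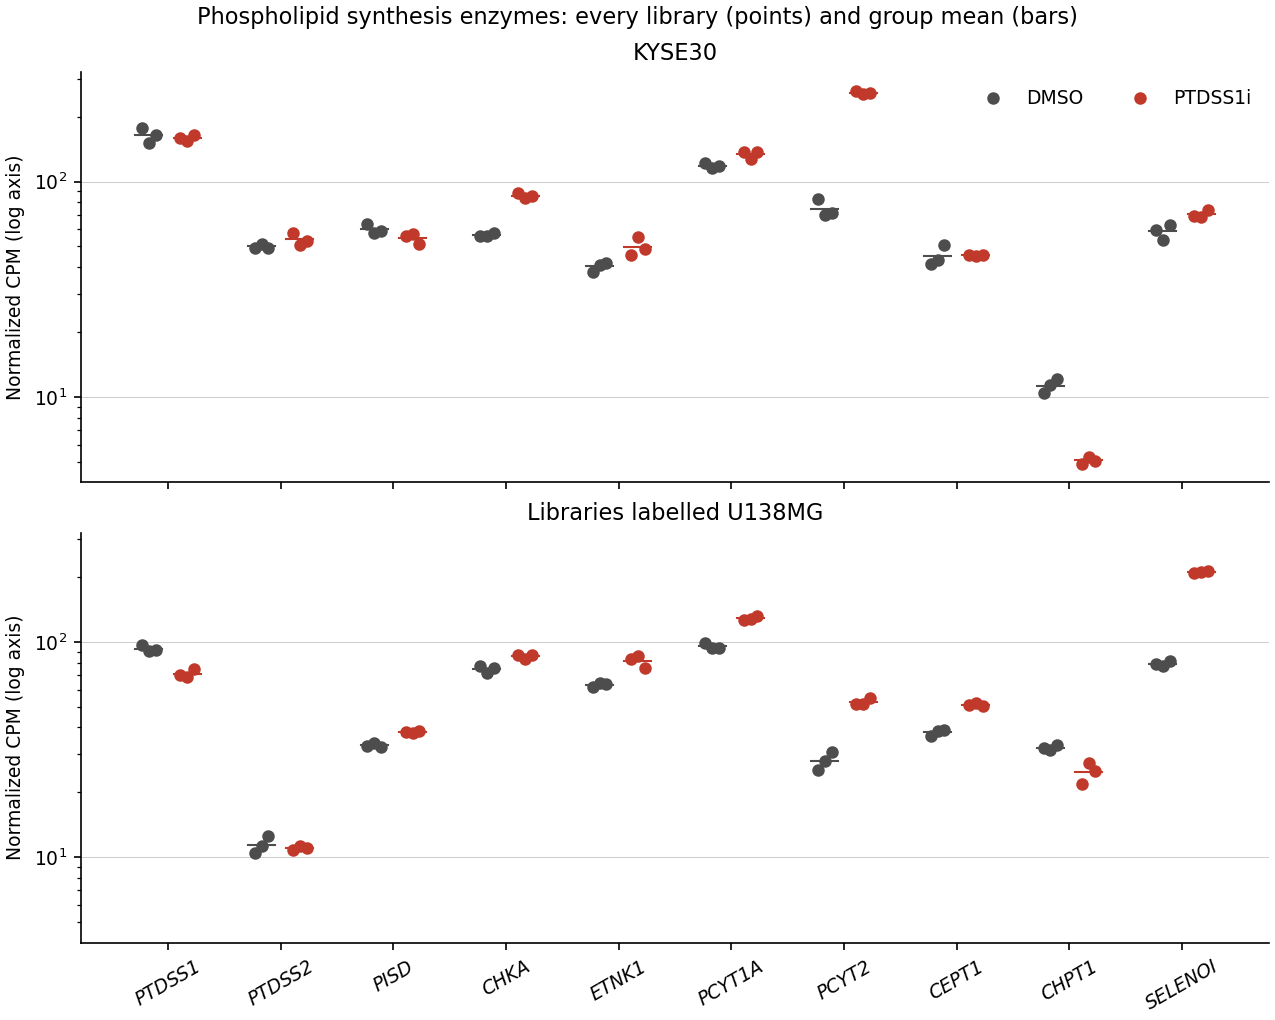
Normalized CPM (log axis) of the 10 enzymes in each of the 12 libraries, with KYSE30 above and the libraries labelled U138MG below, DMSO in grey and PTDSS1i in red, and a bar at each group mean. *PCYT2* stands well above its DMSO libraries on PTDSS1i in KYSE30 and *SELENOI* in the libraries labelled U138MG, while *PTDSS2* overlaps between treatments in both.

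*PTDSS1* (ENSG00000156471, chromosome 8, 96261715 to 96336995, plus strand of GRCh38, as are the coordinates below) encodes the target of the compound, whose activity these counts do not measure. Levels are given as normalized CPM, CPM scaled further by the TMM factors. In KYSE30 *PTDSS1* was at 177.2, 151.5 and 165.01 on DMSO and at 160.1, 154.05 and 163.9 on PTDSS1i. The 2 sets of values overlapped, with means of 164.6 ± 12.8 and 159.3 ± 4.96 (SD, n = 3). The log2 fold change was -0.046 with a 95% interval of -0.16 to 0.071 (adjusted p = 0.494), and without DMSO replicate 1, the highest library, it was 0.015. Among those labelled U138MG it was at 96.6, 90.5 and 91.6 on DMSO and at 70.3, 68.9 and 74.4 on PTDSS1i. All PTDSS1i libraries lay below all DMSO libraries. *PTDSS1* fell by 0.38 on the log2 scale (SE 0.044, adjusted p = 1.06e-08), to 0.768 of the DMSO level. The difference of the changes between the lines, PTDSS1i against DMSO in U138MG minus that in KYSE30, was -0.37 (95% interval -0.53 to -0.22, adjusted p = 7.40e-05). This difference and those below come from edgeR's test of the interaction of line and treatment over 18405 genes, of which 49.9% were called and 8 of the 10 members.

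*PTDSS2* (ENSG00000174915, chromosome 11, 448268 to 491399, plus strand) encodes the other PS synthase and was the only member called in neither set of libraries. In KYSE30 it was at 49.3, 51.5 and 49.4 normalized CPM on DMSO and at 57.5, 50.98 and 53.2 on PTDSS1i. PTDSS1i replicate 2 lay within the range of the DMSO libraries. The log2 fold change was 0.11 (95% interval -0.018 to 0.23, adjusted p = 0.128). It passed the threshold only when both lines were fitted together (0.15, adjusted p = 0.0417), and was 0.061 without PTDSS1i replicate 1 (adjusted p = 0.467) and 0.0016 with scaling by library size alone (adjusted p = 0.984). On the U138MG side *PTDSS2* was at 10.4, 11.2 and 12.5 on DMSO and at 10.8, 11.2 and 11.1 on PTDSS1i. The log2 fold change was -0.049 (95% interval -0.25 to 0.15, adjusted p = 0.677), so the intervals for *PTDSS2* end at 0.23 in KYSE30 and at 0.15 in U138MG on the log2 scale. The difference between the lines was -0.20 (95% interval -0.41 to 0.017, adjusted p = 0.122), and without U138MG DMSO replicate 1 it was -0.27 and passed the threshold (adjusted p = 0.0456).

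The balance of the synthases was followed as the ratio of *PTDSS1* to *PTDSS2* counts within a library, each divided by the length of all exons of the gene, which needs no scaling between libraries. In KYSE30 the ratio was 3.49, 2.86 and 3.25 on DMSO and 2.70, 2.93 and 2.99 on PTDSS1i. The groups overlapped, and the log2 ratio differed by -0.15 (exact two-sided permutation test, p = 0.3), or by -0.083 without DMSO replicate 1 and -0.23 without DMSO replicate 2. It was 8.99, 7.82 and 7.11 on DMSO and 6.32, 5.96 and 6.53 on PTDSS1i in the libraries labelled U138MG. Here every PTDSS1i library lay below every DMSO library, and the log2 ratio differed by -0.34 (exact two-sided permutation test, p = 0.1, the smallest that 3 libraries against 3 can give). The mean ratio on DMSO was 3.20 ± 0.321 in KYSE30 and 7.97 ± 0.947 in U138MG (SD, n = 3). Divided by the longest transcript of each gene these means were 1.99 and 4.97, so their size depends on the length used.

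**Figure D2:**
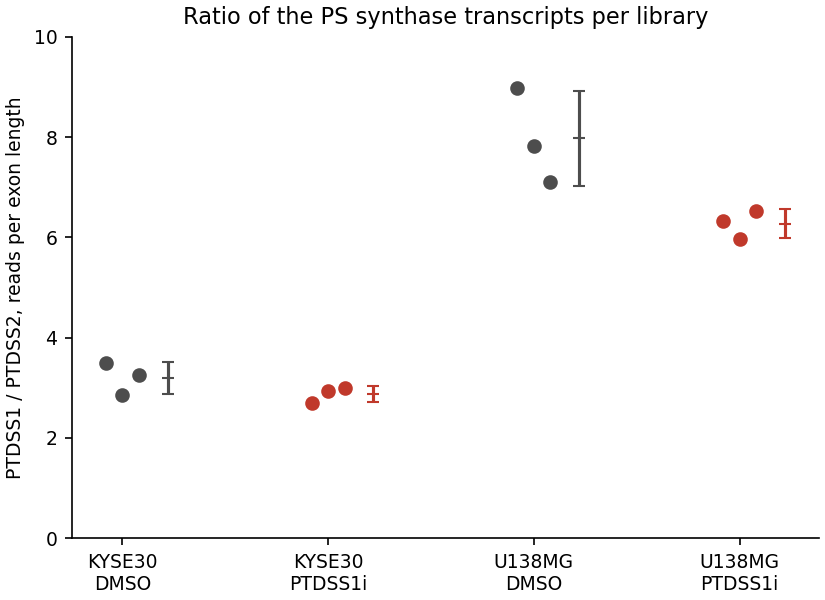
Ratio of *PTDSS1* to *PTDSS2* counts, each per exon length, in every library (points), with the mean and SD of each group beside them. On DMSO the libraries labelled U138MG lie at 7.11 to 8.99 and those of KYSE30 at 2.86 to 3.49, and on PTDSS1i the libraries labelled U138MG lie at 5.96 to 6.53, below all of their DMSO libraries.

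*PISD* (ENSG00000241878, chromosome 22, 31618491 to 31662432, minus strand), which makes PE from the PS that reaches mitochondria, had changes of opposite sign. In KYSE30 it was at 63.4, 57.5 and 59.1 normalized CPM on DMSO and at 55.7, 56.9 and 51.1 on PTDSS1i. All PTDSS1i libraries were lower, but the log2 fold change of -0.14 (95% interval -0.26 to -0.012) missed the threshold (adjusted p = 0.0537). It passed without DMSO replicate 2, at -0.17 (adjusted p = 0.0273), and was -0.091 without DMSO replicate 1 (adjusted p = 0.197) and -0.089 without PTDSS1i replicate 3 (adjusted p = 0.301). It also passed with scaling by library size alone (-0.24, adjusted p = 0.00160) or by the upper quartile (-0.16, adjusted p = 0.0240). With the replicate number as a block it passed at -0.14 (adjusted p = 0.0305). In the other set *PISD* lay at 32.3 to 33.7 on DMSO and at 37.8 to 38.4 on PTDSS1i, with no overlap. It rose by a log2 fold change of 0.21 (SE 0.057, adjusted p = 0.00190), a call lost with scaling by library size alone or by the upper quartile. The changes differed between the lines by 0.31 (adjusted p = 0.00205). Of the exon bases of *PISD*, 3.22% overlap *SFI1*, on the other strand, or *MIR7109*. *SFI1* changed by -0.42 in KYSE30 (adjusted p = 2.71e-05) and by -0.10 in the other set (adjusted p = 0.222).

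The kinases carry out the first step of the Kennedy pathway, and both rose in both sets of libraries. *CHKA* (ENSG00000110721, chromosome 11, 68052859 to 68121444, minus strand) phosphorylates choline and also ethanolamine. Its KYSE30 values were 56.2, 55.9 and 57.7 normalized CPM on DMSO and 88.4, 84.3 and 85.5 on PTDSS1i. These groups lay far apart, and *CHKA* rose by a log2 fold change of 0.61 (SE 0.053, adjusted p = 2.20e-09). With the U138MG label it was at 77.6, 71.3 and 75.2 on DMSO and at 86.7, 83.3 and 87.1 on PTDSS1i. The groups did not overlap there either, but the log2 fold change of 0.20 (SE 0.043, adjusted p = 2.09e-04) was smaller by 0.45 in the test of the difference (adjusted p = 1.94e-06), and its call was lost with scaling by library size alone or by the upper quartile. Of the exon bases of *CHKA*, 16.3% overlap an antisense gene, ENSG00000255031, and the use of strand in counting is not stated. That gene changed by -0.34 in KYSE30 (adjusted p = 0.271), at 24 to 54 counts. In the other set it changed by -1.22 (adjusted p = 1.09e-08), at 92 to 277 counts. *ETNK1* (ENSG00000139163, chromosome 12, 22625075 to 22690665, plus strand) phosphorylates ethanolamine. It lay at 38.1 to 41.8 on DMSO and at 45.5 to 55.5 on PTDSS1i in KYSE30, and at 61.9 to 64.7 and 75.3 to 85.6 in the libraries labelled U138MG. The log2 fold changes were 0.30 (SE 0.070, adjusted p = 8.35e-04) and 0.36 (SE 0.048, adjusted p = 1.74e-07). For *ETNK1* no difference between the lines was called, with an estimate of 0.018 and a 95% interval of -0.16 to 0.20 (adjusted p = 0.915).

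The cytidylyl-transferases make CDP-choline and CDP-ethanolamine, and they rose in both sets of libraries, with the larger log2 fold changes for the ethanolamine enzyme. *PCYT1A* (ENSG00000161217, chromosome 3, 196214222 to 196287957, minus strand), which activates choline, lay at 116.02 to 122.1 normalized CPM on DMSO and at 127.6 to 137.6 on PTDSS1i in KYSE30. The rise was 0.17 on the log2 scale (SE 0.051, adjusted p = 0.00545) and was not called with scaling by library size alone (0.070, adjusted p = 0.192). *PCYT1A* rose from a range of 93.3 to 99.1 to one of 126.9 to 132.1 in the libraries labelled U138MG, by 0.44 on the log2 scale (SE 0.039, adjusted p = 6.59e-11). The change differed between the lines by 0.22 (adjusted p = 0.00437).

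*PCYT2* (ENSG00000185813, chromosome 17, 81900965 to 81911464, minus strand), which activates ethanolamine, is the member with the 3 CCAAT boxes printed above. The stretch before its other listed start (chr17:81911176-81911425) holds no CCAAT box. The KYSE30 libraries held 82.98, 69.98 and 71.1 normalized CPM on DMSO and 263.8, 255.2 and 256.6 on PTDSS1i. The lowest PTDSS1i library was above the highest DMSO library by a wide margin. The log2 fold change was 1.79 (SE 0.060, adjusted p = 3.08e-16), which ranks 298 from the top of the 16389 tested genes. For the U138MG label *PCYT2* was at 25.3, 27.9 and 30.8 on DMSO and at 51.6, 51.6 and 54.6 on PTDSS1i. Again no library overlapped, with a log2 fold change of 0.91 (SE 0.062, adjusted p = 2.47e-13). The rise was smaller by 0.92 there than in KYSE30 (95% interval of the difference -1.11 to -0.74, adjusted p = 2.65e-09). It was called under every other scaling, filter and tool tried and without each library in turn, with log2 fold changes of 1.69 to 1.88 in KYSE30 and of 0.76 to 0.99 in the other set. Of the exon bases of *PCYT2*, 28.1% overlap *NPB* or *ANAPC11* on the other strand, and the use of strand in counting is not stated. *ANAPC11* changed by -0.35 in KYSE30 (adjusted p = 1.34e-05) and 0.22 in the other set (adjusted p = 6.38e-04), and *NPB* held 86 counts at most.

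The phosphotransferases take the last step, and they diverged. *SELENOI* (ENSG00000138018, chromosome 2, 26308547 to 26395891, plus strand), a selenoprotein, makes PE from CDP-ethanolamine. The KYSE30 libraries had 59.7, 53.6 and 62.8 normalized CPM on DMSO and 68.9, 68.2 and 74.01 on PTDSS1i, with no overlap and a log2 fold change of 0.26 (SE 0.062, adjusted p = 0.00102). The libraries labelled U138MG had 78.9, 76.8 and 81.7 on DMSO and 208.5, 211.5 and 213.5 on PTDSS1i. The log2 fold change was 1.42 (SE 0.037, adjusted p = 4.62e-23), which ranks 869 from the top of the 17666 tested genes. The difference between the lines was 1.12 (95% interval 0.96 to 1.27, adjusted p = 5.99e-14), the largest among the 10 members. The *ADGRF3* gene, which overlaps 5.95% of the exon bases of *SELENOI*, held 12 counts at most.

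*CHPT1* (ENSG00000111666, chromosome 12, 101696947 to 101744140, plus strand), which makes PC from CDP-choline, fell in both sets of libraries. In KYSE30 it was at 10.4, 11.3 and 12.04 normalized CPM on DMSO, from 212 to 283 counts, and at 4.89, 5.25 and 5.04 on PTDSS1i, from 103 to 122 counts. The PTDSS1i libraries were all lower, and the gene fell by 1.15 on the log2 scale (SE 0.11, adjusted p = 9.70e-09). With the U138MG label *CHPT1* was at 32.0, 31.4 and 33.1 on DMSO and at 21.9, 27.3 and 25.1 on PTDSS1i. The groups did not overlap, and it fell by 0.38 on the log2 scale (SE 0.072, adjusted p = 4.03e-05), a change that differed from that in KYSE30 by 0.74 (adjusted p = 2.07e-05). *CEPT1* (ENSG00000134255, chromosome 1, 111139627 to 111185102, plus strand) can make both PC and PE. Its KYSE30 level was 41.2 to 50.6 on DMSO and 45.2 to 45.7 on PTDSS1i, so that the PTDSS1i libraries lay inside the DMSO range, with a log2 fold change of 0.011 (95% interval -0.13 to 0.15, adjusted p = 0.900). It rose in the libraries labelled U138MG, from 36.4 to 38.9 on DMSO to 50.2 to 52.1 on PTDSS1i, without overlap and by a log2 fold change of 0.43 (SE 0.052, adjusted p = 3.35e-08), and the lines differed by 0.38 (adjusted p = 5.99e-04). Of the exon bases of *CEPT1*, 12.5% overlap genes on the other strand, among them *DRAM2*, which rose by 0.17 in KYSE30 (adjusted p = 0.0292) and 0.59 in the other set (adjusted p = 6.94e-11).

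**Figure D3:**
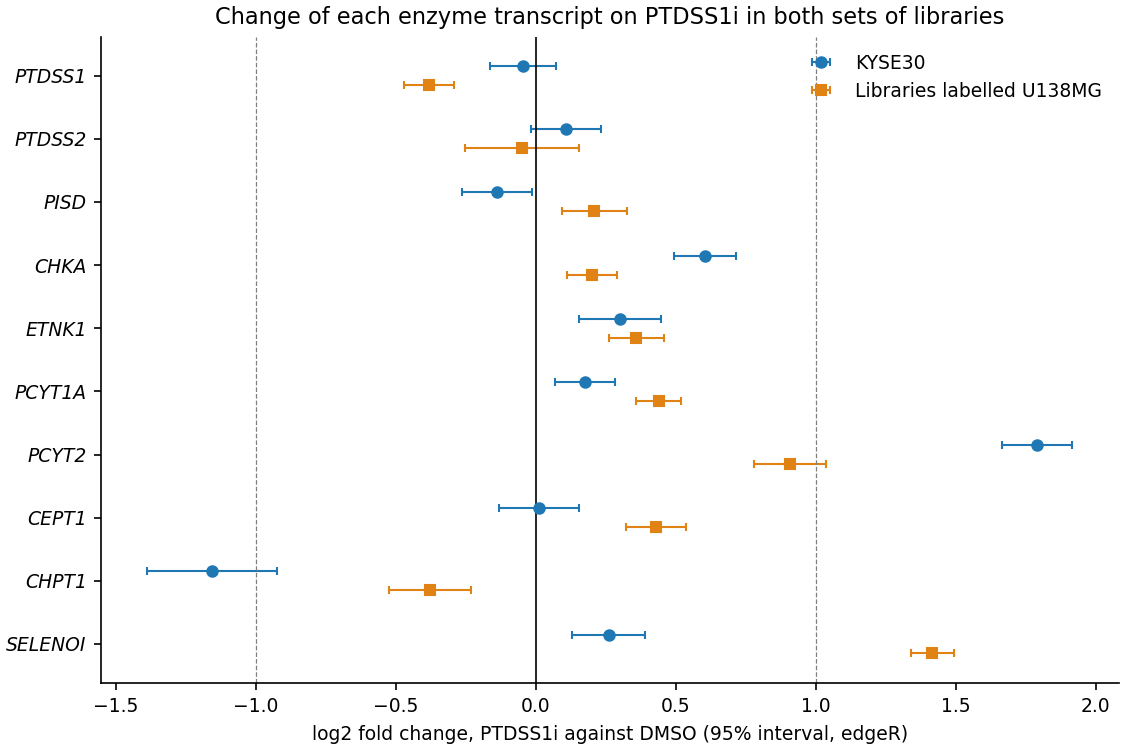
Log2 fold change of each enzyme transcript, PTDSS1i against DMSO, with its 95% interval from edgeR, for KYSE30 (circles) and the libraries labelled U138MG (squares), with dashed lines at a log2 fold change of 1 in either direction. *PCYT2* lies at 1.79 and 0.91, *SELENOI* at 0.26 and 1.42, *CHPT1* at -1.15 and -0.38, and the intervals of *PTDSS2* include 0 in both.

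Set out by route, the 3 members of the ethanolamine arm alone (*ETNK1*, *PCYT2*, *SELENOI*) each rose in both sets of libraries. With scaling by library size alone these calls held, at lower values for *ETNK1* (0.20 in KYSE30 and 0.21 in the other set) and for *SELENOI* in KYSE30 (0.16, adjusted p = 0.0323). *PCYT2* had the largest change of the 3 in KYSE30 and *SELENOI* in the libraries labelled U138MG. Other genes of this arm did not all rise. *ETNK2*, the paralog of *ETNK1*, fell by 0.36 in KYSE30 (adjusted p = 0.00479) and rose by 0.83 in the other set (adjusted p = 2.42e-07). *CEPT1*, which can also make PE, was not called in KYSE30. In the choline arm, *CHKA* and *PCYT1A* rose and *CHPT1* fell in both. With scaling by library size alone, *PCYT1A* in KYSE30 (0.070, adjusted p = 0.192) and *CHKA* in the other set (0.053, adjusted p = 0.284) were not called. *CHKB*, the paralog of *CHKA*, was not called in KYSE30, at 8 to 18 counts. It fell by 0.22 in the other set (adjusted p = 0.0113). In all, 6 of the 10 members were called in the same direction in both sets, as were 34% of the 13990 genes tested in both. Of these 6, *ETNK1* alone had no called difference between the lines.

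Levels can be compared between genes only per length, and were set as normalized CPM per 1000 bases of exon. On DMSO in KYSE30 *PTDSS1* was highest at 26.1 ± 2.04 (SD, n = 3) and *CHPT1* lowest at 1.87 ± 0.140. Between them came *PCYT1A*, *CHKA*, *PISD*, *PCYT2*, *PTDSS2*, *SELENOI*, *CEPT1* and *ETNK1*, in which *PCYT1A* and *CHKA*, *PISD* and *PCYT2*, and *CEPT1* and *ETNK1* overlapped. On PTDSS1i *PCYT2* moved from the fifth place to the first, at 37.5 ± 0.670, and *PTDSS1* was the second at 25.3 ± 0.788. The order in the libraries labelled U138MG was another: *CHKA* was highest on DMSO at 19.3 ± 0.820, followed by *PTDSS1* at 14.8 ± 0.513, *PCYT1A*, *SELENOI*, *ETNK1*, *PISD*, *CHPT1*, *CEPT1* and *PCYT2*, and *PTDSS2* was lowest at 1.86 ± 0.171. *CEPT1* and *PCYT2* were the only neighbours that overlapped. On PTDSS1i *SELENOI* was highest there at 24.7 ± 0.294 and *CHKA* next at 22.1 ± 0.534, an order that was reversed when the longest transcript was used as the length. *PTDSS2* stayed lowest at 1.80 ± 0.0362. Other places in these orders also depended on the length used, but not *PCYT2* as the highest on PTDSS1i in KYSE30 or *PTDSS2* as the lowest in the libraries labelled U138MG.

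The 3 genes whose log2 CPM followed *PTDSS1* most closely over the 12 libraries, after the mean of each line was subtracted, were *ARMH3*, *DYNLL1* and *RPL41*, with Pearson's r of 0.976, 0.972 and 0.972 over 9776 genes. Those for *PTDSS2* were *AJM1*, *SPECC1L* and *NR6A1*, with 0.862, 0.862 and 0.855. The points share lines and treatments, so these values describe the libraries.

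Of 50 other genes of the routes that feed and drain these enzymes, 43 could be tested in KYSE30, where 19 rose, 11 fell and 13 were not called, beside the 30.1% and 32% of all tested genes given above. With the U138MG label 44 were tested, of which 23 rose, 14 fell and 7 were not called, beside 33.9% and 33.6% of all. Their median log2 fold changes were 0.15 and 0.14. Of the 42 tested in both, 10 rose in both, 2 fell in both and 12 were called in opposite directions, beside 18.5%, 15.5% and 14.9% of all genes tested in both. *PCYT1B*, *ETNPPL*, *SLC5A7* and *PLA1A* have no line in the KYSE30 table as given.

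Diacylglycerol is the backbone that the phosphotransferases use, and phosphatidic acid is its precursor. Of 11 tested genes of their supply, 5 rose and 3 fell in KYSE30, and 5 rose and 4 fell in the libraries labelled U138MG. *LPIN1*, a lipin that makes diacylglycerol from phosphatidic acid, went from 1006 to 1445 counts on DMSO to 5145 to 6435 on PTDSS1i in KYSE30, a log2 fold change of 2.14 (SE 0.10, adjusted p = 3.25e-08). It rose by 1.66 in the libraries labelled U138MG (SE 0.04, adjusted p = 7.20e-23). *LPIN2*, of the same family, rose by 0.87 and 1.05, a difference of 0.14 that was not called (adjusted p = 0.0830). The acyltransferases *AGPAT4* and *GPAT3* moved apart: *AGPAT4* rose by 1.94 in KYSE30 and fell by 0.46 in the other set, and *GPAT3* fell by 0.38 in KYSE30 and rose by 2.56 in the other set.

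Enzymes that release headgroups or break phospholipids down rose in 7 of 10 cases and fell in none in KYSE30, and rose in 6 and fell in 3 in the libraries labelled U138MG. *GPCPD1*, which hydrolyses glycerophosphocholine, had 683 to 839 counts on DMSO and 6038 to 6567 on PTDSS1i with the U138MG label, a log2 fold change of 3.00, and it rose by 0.97 in KYSE30. *PNPLA7*, a lysophospholipase, was at 15 to 80 counts and rose by 1.01 in KYSE30 and fell by 1.31 in the other set. *PLD2*, a phospholipase D, rose by 0.21 in KYSE30 and fell by 1.08 in the other set.

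In choline and ethanolamine transport, 3 of 6 tested genes rose and 2 fell in KYSE30, and 1 of 5 rose and 4 fell in the libraries labelled U138MG. The choline transporter-like gene *SLC44A2* rose by 0.53 in KYSE30 and fell by 1.14 in the other set. Among the remaining Kennedy pathway paralogs and other routes to PC and PE, none of 3 tested genes rose and 2 fell in KYSE30, and 2 of 5 rose and 2 fell in the other set, where *PHOSPHO1*, a phosphocholine and phosphoethanolamine phosphatase, fell by 1.94 at only 4 to 35 counts. In the CDP-diacylglycerol branch, which leads to phosphatidylinositol and cardiolipin, 3 of 7 rose and 1 fell in KYSE30, and 4 rose and 1 fell in the other set. Of the 4 genes for transfer of PS and phosphatidic acid into mitochondria, 1 rose and 3 fell in KYSE30, and 3 rose and none fell in the other set. Of the PS lipases tested, 2 in each set, none was called in KYSE30 and 2 rose in the other set. These lists are described by their counts. Of all tested genes, 30.1% rose and 32% fell in KYSE30, and 33.9% rose and 33.6% fell in the other set. Nothing particular to one list was tested.

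**Figure D4:**
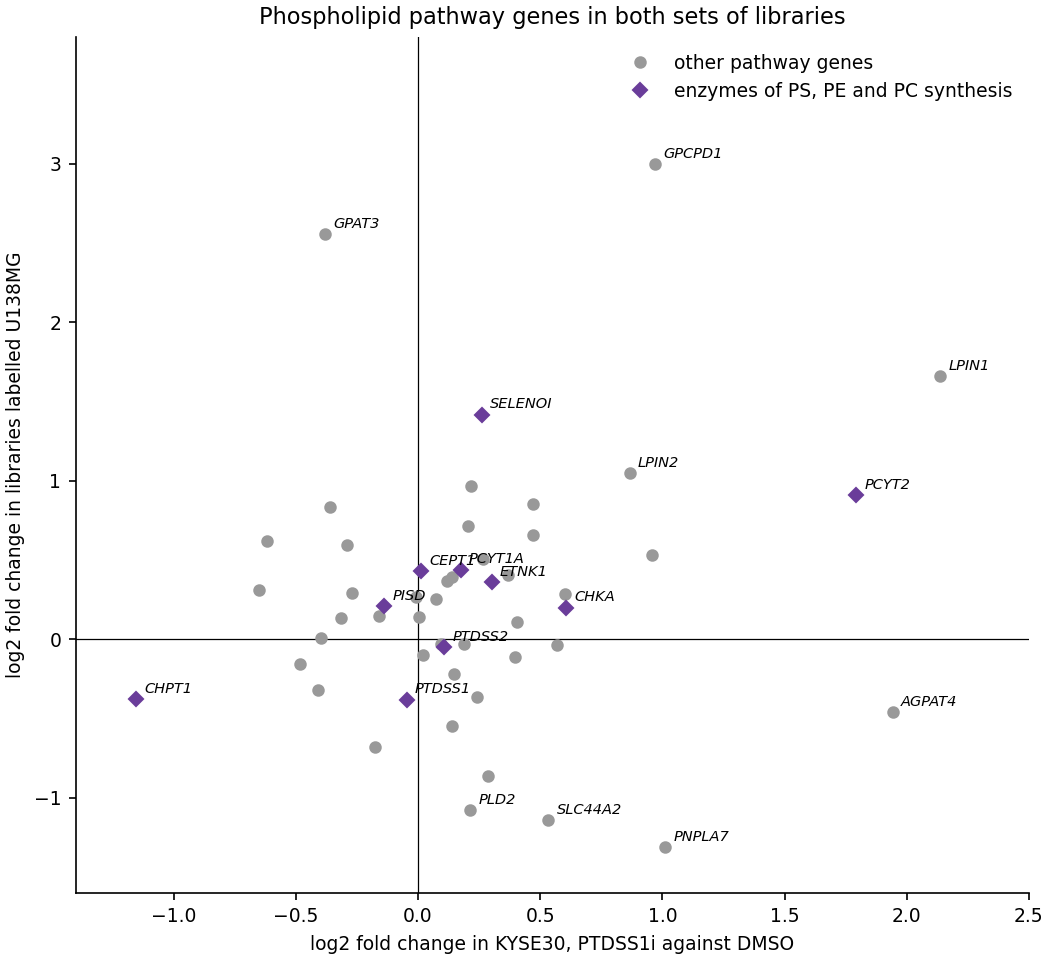
Log2 fold change on PTDSS1i in KYSE30 (horizontal axis) and in the libraries labelled U138MG (vertical axis) of the 10 enzymes (diamonds) and the 42 other pathway genes tested in both (circles), with the named genes labelled. *PCYT2*, *LPIN1*, *LPIN2* and *GPCPD1* lie high on both axes, *GPAT3* and *AGPAT4* lie on opposite sides of 0, and *CHPT1* is below 0 on both.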

How the data were processed

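The 12 poly-A libraries were made with the TruSeq RNA kit v2, per the labels. The authors deposited 1 table of raw, unnormalized counts per line, the reads assigned to each gene. The submitters' processing notes list Trimmomatic, STAR, featureCounts and hg38, with no versions. Neither the annotation nor the strand setting is given in the sources used here, so genes with overlapping exons are uncertain. Groups and replicate numbers came from the sample titles. The labels do not say whether replicates are separate cultures, so p-values measure only the spread between these samples, which may be technical.

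edgeR 4.0.16, DESeq2 1.42.0 and limma 3.58.1 were run in R 4.3.3, and matplotlib 3.10.9 in Python 3.11.15 drew the figures. Genes were kept by filterByExpr (minimum count 10, minimum total 15), and scaled by TMM. For each line separately, PTDSS1i was set against DMSO by the quasi-likelihood test of edgeR in its robust form, with p-values adjusted by Benjamini-Hochberg over all tested genes and called at 0.05. The difference between the lines was the interaction term over all 12 libraries. The tested genes hold 99.9% of the counts, and the biological coefficient of variation was 0.0549 in KYSE30 and 0.0452 in U138MG. The *PTDSS1* to *PTDSS2* ratio was tested by an exact permutation test.

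All 10 members are named, with the other pathway genes called past an absolute log2 fold change of 1 in either line, and the 3 genes most like each synthase among those with at least 5 CPM in every group. Outside this rule, *ETNK2* and *CHKB* are named as paralogs of members, past that size in neither line. The markers, the genes overlapping members and those with no line in the KYSE30 table are named as well. Members and lists were chosen with earlier results of these data known. Exons came from GENCODE v29 (GRCh38), which is not known to be the annotation of the counts, and upstream stretches from RefSeq's promoter table (GRCh38.p14), which holds 8 of the members used here outside chromosome 8. *CHKA* has no entry there, and no sequence of *PTDSS1* is shown.

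On simulated counts with 100 genes changed by each size, the test recovered 87 of 100 at a log2 change of 0.5 and 100 at 1 in KYSE30, and 88 and 100 in U138MG, with 13 and 6 false calls over 16101 and 17330 genes. The test of the difference recovered 69 and 90, with 9 false calls over 18137 genes. Only genes above a floor of mean counts were changed, and all genes were drawn with a common dispersion. Far fewer genes changed than were called in the data, so these figures come from an easier setting. Alternatives were other scalings, filters and thresholds, DESeq2, a fit that is not robust, a replicate block, both lines fitted together, another gene length, and each library left out.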

Additional observations from a re-analysis of the deposited data

Results flagged for a closer look

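The changes on PTDSS1i differed between the lines, by edgeR's test of the interaction of line and treatment with Benjamini-Hochberg adjustment, for 8 of the 10 enzymes. The line also carries the batch and the table, which cannot be told apart from it. Values are differences of log2 fold changes, U138MG minus KYSE30. Above 0 were *SELENOI* (1.12), *CHPT1* (0.74, a smaller fall), *CEPT1* (0.38), *PISD* (0.31) and *PCYT1A* (0.22). Below 0 were *PCYT2* (-0.92), *CHKA* (-0.45) and *PTDSS1* (-0.37). Of all genes tested 49.9% differed. All 8 were called under each alternative run for this test (size factors of DESeq2, library size alone, DESeq2, at least 10 counts in every library, a replicate block, and each of the 12 libraries left out).

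Of the 9 other pathway genes named for their size of change, 7 differed by the same test. These genes were named for a called log2 fold change past 1 in a line, and of all 4521 such genes 64.2% differed, so nothing is read from this count. *GPAT3* (2.90) and *GPCPD1* (1.99) were above 0, and *AGPAT4* (-2.44), *PNPLA7* (-2.36), *SLC44A2* (-1.72), *PLD2* (-1.33) and *LPIN1* (-0.52) were below it. *GPAT3*, *AGPAT4*, *PNPLA7*, *SLC44A2* and *PLD2* changed sign between the lines.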

How the results depend on the processing

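Of the 20 changes of members within a line, 12 kept their direction and call under every alternative scaling, filter, tool and left-out library. Of the 10 differences between the lines, 8 did under the alternatives run for them, which left out the upper quartile, no filter and the fit that is not robust. Scaling by library size alone moved the median of all genes by -0.11 in KYSE30 and -0.15 in U138MG, and the upper quartile by -0.024 and -0.15. The calls these scalings changed were on small changes: with library size alone *PTDSS1* in KYSE30 was called at -0.15, *PISD* in KYSE30 at -0.24 (-0.16 with the upper quartile), and *PCYT1A* in KYSE30 and *PISD* and *CHKA* in U138MG were not called (the last 2 with the upper quartile as well). Without losing a call, *PCYT1A* in U138MG (0.29) and *CEPT1* in U138MG (0.28) moved by about as much with either scaling. Relative to those shifts the changes were close to their reported values. Lower members in KYSE30 went from 1 to 3 with library size alone, 2 with the upper quartile, and 1 to 2 with a library left out. With the replicate number as a block that count was 2, as *PISD* was called, and no other call of a member changed. Correlations of same-numbered libraries were 0.075, 0.072 and 0.020 in KYSE30 and 0.0088, -0.0029 and 0.048 in U138MG. In KYSE30 3 of the 3 numbers correlated best with their own, and in U138MG 2 did. With so few libraries this does not decide whether the numbers pair the samples, and a pairing is not excluded. The main fits used no pairing. With a log2 fold change over 1 required, the members higher and lower were 1 and 1 in KYSE30 and 1 and 0 in U138MG, and the other pathway genes 3 and 0, and 4 and 4. The DMSO ratio of *PTDSS1* to *PTDSS2* was 1.99 and 4.97 with the longest transcript as length.

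Signs changed only for values that were not called. *CEPT1* in KYSE30 was -0.095 with library size alone, -0.013 with the upper quartile, and from -0.043 to 0.10 without single libraries. *PTDSS1* in KYSE30 was 0.015 without DMSO replicate 1, with -0.11 to 0.015 over single libraries, *PTDSS2* in U138MG was 0.028 without DMSO replicate 3, with -0.11 to 0.028, and the *ETNK1* difference was -0.018 with at least 10 counts in every library and -0.055 to 0.085 without single libraries. The *PTDSS2* difference was called with at least 10 counts in every library (-0.23, adjusted p = 0.0489 by edgeR). Intervals rest on the spread of 3 libraries a group.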
